A study of Mus musculus with 6 samples.

Results

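Transcripts of 9 genes that make or sense prostaglandins and leukotrienes were followed in RAW264.7 cells, a mouse macrophage-like line, cultured on acoustic devices. The genes were chosen by symbol (Ptgs1, Ptgs2, Ptges, Ptger4, Pla2g4a, Alox5, Alox5ap, Ltc4s and Tbxas1), with earlier results of these data known. All 9 were found among the 16108 genes of the deposited expression table. In the acoustics-on group the devices were driven for 48 h at 5 kHz and 18 V peak to peak, after overnight attachment. In the acoustics-off group cells sat on the same kind of device for 48 h without a drive. Each group had 3 libraries, all from this single cell line with no genetic change named in the labels. The series design also names cells in a petri dish, which were not analysed here. The labels do not say whether replicates were separate cultures or separate devices, so p-values measure the spread between these libraries, which may be technical.

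Eicosanoids are short-lived lipid signals made from arachidonate, a fatty acid held in membrane phospholipids. A phospholipase frees the arachidonate, and cyclooxygenases turn it into prostaglandin H, from which terminal synthases make prostaglandin E, thromboxane and related prostanoids. In a competing branch, 5-lipoxygenase with its membrane helper protein makes leukotriene A, and leukotriene C synthase joins glutathione to it. Macrophages hold both branches, and their inducible cyclooxygenase is a classical inflammatory response gene.

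Values were FPKM, the authors' fragments per kilobase of transcript, scaled to sequencing depth, so levels can be set side by side between genes. Genes were tested with limma where 3 or more libraries reached 0.5 FPKM, which left 11664 genes, all 9 of the set included. A gene is said to have risen or fallen where its Benjamini-Hochberg adjusted p over all tested genes was under 0.05. Log2 differences were taken between values of FPKM + 1, so for weakly expressed genes they are smaller than the plain ratio of levels. In bulk RNA, fewer cells with a transcript and less of it per cell cannot be told apart.

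The libraries were close in depth, with relative depths of 0.96 to 1.075 read from the steps of low values. Their summed FPKM differed more, at 1000722, 824063 and 716509 in acoustics-on replicates 1, 2 and 3. In acoustics-off replicates 1, 2 and 3 it was 840707, 825342 and 821818. Acoustics-on replicate 1 stood apart. The leading principal component held 64.4% of the variance, and on it this library lay at 58.8 and the other 5 libraries between -23.5 and 4.66. Short transcripts ran high in acoustics-on replicates 1 and 2: the rank correlation across 9942 protein-coding genes between transcript length and the difference from the acoustics-off mean was -0.56 and -0.46 there, against 0.03 in acoustics-on replicate 3. In acoustics-off replicates 1, 2 and 3, each set against the other acoustics-off libraries, it was 0.24, -0.31 and 0.04. Genes are not independent replicates. Results are therefore also given without acoustics-on replicate 1 and with the length and GC trend of each library divided out. All 9 macrophage markers, among them Adgre1, Csf1r and Cd68, were present. Their summed level was 19944 to 26857 FPKM with acoustics on and 28135 to 30358 FPKM with acoustics off. Lyz2 made up most of this, with 16356 to 23205 FPKM with acoustics on and 23951 to 26096 FPKM with acoustics off. Every acoustics-on value lay below every acoustics-off value for Adgre1, Csf1r, Cd68, Itgam, Lyz2 and Mertk. Of all tested genes 17.7% did so. Spi1, Cd14 and Fcgr1 overlapped. With limma 0 of the 9 markers rose and 0 fell. At an unadjusted p under 0.05, 0 were higher and 3 lower, against 10.5% and 9.16% of all tested genes. The authors' deposited table called 0 higher and 1 lower, against 5.08% and 2.49% of all its genes with an adjusted p. Csf1r, which encodes the receptor for macrophage colony-stimulating factor, fell without acoustics-on replicate 1 (log2 difference -0.67, adjusted p = 0.036) and with the length and GC trend divided out (-0.68, adjusted p = 0.048), and the other 8 markers passed in neither fit. Of the mast cell, epithelial and lymphocyte markers, 1 each was in the table (Kit, Krt8 and Cd79a), with a highest library value of 0.15, 0.12 and 0.09 FPKM.

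With acoustics on, Pla2g4a and Ptges rose, and 0 of the 9 genes fell. These 2 are 22.2% of the set, where 1.5% of all tested genes rose and 0.574% fell (limma). The 9 genes were chosen with earlier results of these data known, so their shares beside those of all genes are descriptive. At an unadjusted p under 0.05, 3 genes were higher and 1 was lower, where 10.5% of all tested genes were higher and 9.16% lower. The authors' deposited table called 3 higher and 0 lower, where 7.56% of all genes with an adjusted p in that table were called in either direction (5.08% higher, 2.49% lower). The third gene there was Ptgs2, which had the largest difference of the 9. The groups did not overlap for Pla2g4a, Ptges, Ptgs2 and Ptgs1. That is 44.4% of the set, against 34.8% of all tested genes, so non-overlap alone does not set these genes apart. The median log2 difference was 0.01 over the 9 genes and -0.03 over all tested genes. Without acoustics-on replicate 1, 3 of the 9 rose and 0 fell. Of all 11664 tested genes 554 then rose and 359 fell, 7.83% in either direction. With the length and GC trend divided out the same 3, Pla2g4a, Ptges and Ptgs2, rose and 0 fell. Of all tested genes 297 then rose and 342 fell, 5.48% in either direction. With 1 acoustics-off library left out, whichever it was, 0 of the 9 passed, and over all tested genes 14 to 20 rose and 5 to 14 fell.

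**Figure D1:**
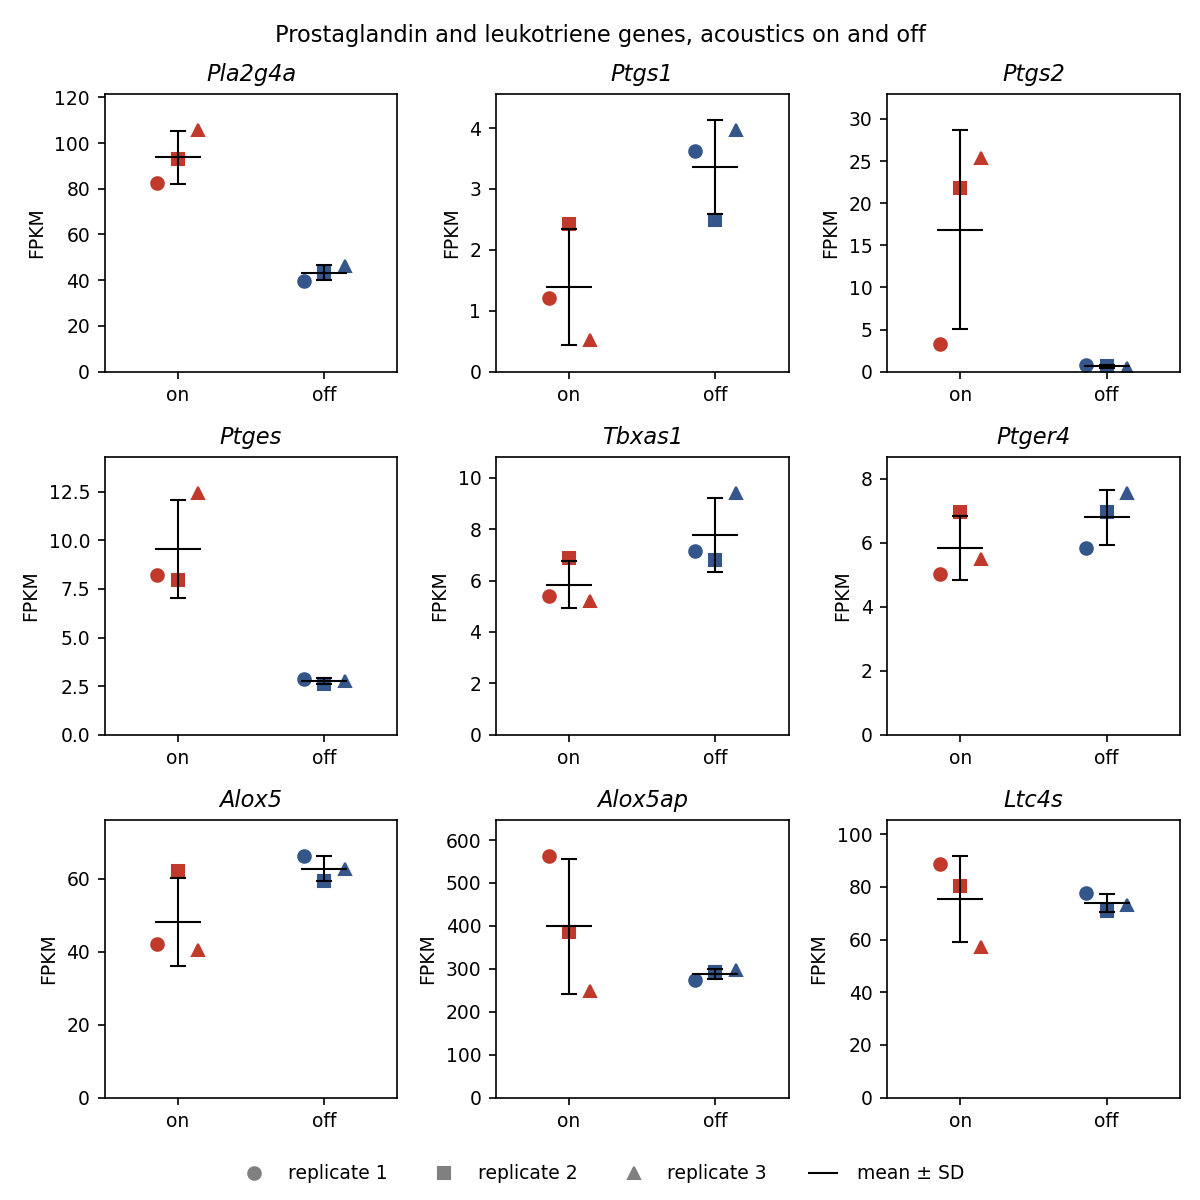
FPKM of each of the 9 genes in the 3 acoustics-on (red, left) and 3 acoustics-off (blue, right) libraries, with a marker shape per replicate number and the mean ± SD in black; each panel has its own linear axis from 0. The acoustics-on values of Pla2g4a, Ptgs2 and Ptges lie above all acoustics-off values, while those of Ptger4, Tbxas1, Alox5, Alox5ap and Ltc4s overlap them.

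Arachidonate release was represented by Pla2g4a, the cytosolic phospholipase A2 that cleaves arachidonate from membrane phospholipids. It lies on chromosome 1 (149829618 to 149961290, minus strand, GRCm38). Pla2g4a was at 82.5, 93.0 and 105.8 FPKM in acoustics-on replicates 1, 2 and 3, and at 39.7, 43.7 and 46.4 FPKM in acoustics-off replicates 1, 2 and 3. Each acoustics-on library was well above the highest acoustics-off library, including replicate 1. The means were 93.8 ± 11.7 FPKM with acoustics on and 43.2 ± 3.37 FPKM with acoustics off (SD, n = 3 each), a 2.17-fold ratio of means. The log2 difference was 1.09 (SE 0.14, adjusted p = 0.015, limma). On its FPKM + 1 scale that is 2.13-fold with a 95% interval of 1.70 to 2.68. Leaving out acoustics-on replicate 1 gave 1.18 (adjusted p = 0.0026), and dividing out the length and GC trend gave 1.11 (adjusted p = 0.0049). It did not pass with an acoustics-off library left out, with adjusted p-values of 0.097 to 0.12. Over all 17 alternatives the adjusted p ran from 0.00016 to 0.12 and the log2 difference from 1.00 to 1.18. With 7986 normalised reads on average in the authors' deposited table, counting error at that mean would be about 1.12%. The RefSeq promoter window (250 bases before to 50 after the start, chr1:149961241-149961540, minus strand, GRCm38.p6) is shown because this gene rose, and it held 0 of the 9 motifs listed with the cyclooxygenase genes.
Pla2g4a: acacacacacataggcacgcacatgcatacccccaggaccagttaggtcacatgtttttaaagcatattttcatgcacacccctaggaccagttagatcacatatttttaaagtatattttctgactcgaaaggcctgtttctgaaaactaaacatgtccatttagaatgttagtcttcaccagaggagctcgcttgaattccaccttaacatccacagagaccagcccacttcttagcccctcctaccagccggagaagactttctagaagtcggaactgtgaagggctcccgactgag

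Neither cyclooxygenase gene passed in the main fit (uncorrected FPKM + 1, all 6 libraries), and their differences had opposite signs. Ptgs2 encodes the inducible cyclooxygenase COX-2, and Ptgs1 the constitutive COX-1. Ptgs2 lies on chromosome 1 (150100031 to 150108227, plus strand), with its start 138.7 kb from that of Pla2g4a. The annotation places 0 protein-coding genes between these neighbours. Ptgs2 was at 3.34, 21.8 and 25.4 FPKM in acoustics-on replicates 1, 2 and 3, and at 0.76, 0.62 and 0.46 FPKM in acoustics-off replicates 1, 2 and 3. Acoustics-on replicate 1 was far below the other acoustics-on libraries, but above every acoustics-off library. The means were 16.9 ± 11.8 FPKM with acoustics on and 0.61 ± 0.15 FPKM with acoustics off (SD, n = 3 each), a 27.5-fold ratio of means. The log2 difference of 3.10 (SE 0.64, 95% interval 1.58 to 4.62) did not pass in the main fit (adjusted p = 0.069, limma). Without acoustics-on replicate 1 it was 3.93 (SE 0.13, adjusted p = 0.00011), and with the length and GC trend divided out it was 3.16 (adjusted p = 0.029). It passed in 7 of 17 alternatives, some of which kept all 6 libraries, with adjusted p-values from 2.1e-05 to 0.26 over the 17. In the authors' deposited table its log2 fold change was 4.78 (adjusted p = 3.4e-14 there).

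Ptgs1 (chromosome 2, 36230426 to 36252272, plus strand) had lower values with acoustics on. It was at 1.22, 2.42 and 0.53 FPKM in acoustics-on replicates 1, 2 and 3, and at 3.62, 2.49 and 3.97 FPKM in acoustics-off replicates 1, 2 and 3. The highest acoustics-on value, in replicate 2, was just under the lowest acoustics-off value, also in replicate 2. The means were 1.39 ± 0.96 FPKM with acoustics on and 3.36 ± 0.77 FPKM with acoustics off (SD, n = 3 each). The log2 difference of -0.93 (SE 0.30, 95% interval -1.64 to -0.22) did not pass (adjusted p = 0.17, limma), nor did it in any of 17 alternatives (adjusted p 0.065 to 0.50). At 263 normalised reads on average in the authors' deposited table, it had the lowest count of the 9 genes, and counting error at that mean would be about 6.16%.

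The starts of these genes are shown to let a reader compare the inducible with the constitutive gene, with an ATTTA-rich stretch of Ptgs2. The promoter windows are RefSeq sequences (250 bases before to 50 after the start, GRCm38.p6, plus strand) at chr1:150099781-150100080 for Ptgs2 and chr2:36230176-36230475 for Ptgs1. The third sequence holds 30 bases of the Ptgs2 3′ untranslated region, starting 12 bases after the stop codon (GENCODE M21 transcript). It was picked as the first window of that size with the most ATTTA pentamers, 4, so it is not typical of the region. Capitals mark searched motifs in the promoters and the pentamer ATTTA in the untranslated region.
Ptgs2 promoter: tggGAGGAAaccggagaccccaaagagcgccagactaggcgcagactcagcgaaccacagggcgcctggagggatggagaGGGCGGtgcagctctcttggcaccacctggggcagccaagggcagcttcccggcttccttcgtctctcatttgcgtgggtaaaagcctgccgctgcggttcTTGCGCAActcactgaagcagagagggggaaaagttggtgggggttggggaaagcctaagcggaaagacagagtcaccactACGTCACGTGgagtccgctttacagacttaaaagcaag
Ptgs1 promoter: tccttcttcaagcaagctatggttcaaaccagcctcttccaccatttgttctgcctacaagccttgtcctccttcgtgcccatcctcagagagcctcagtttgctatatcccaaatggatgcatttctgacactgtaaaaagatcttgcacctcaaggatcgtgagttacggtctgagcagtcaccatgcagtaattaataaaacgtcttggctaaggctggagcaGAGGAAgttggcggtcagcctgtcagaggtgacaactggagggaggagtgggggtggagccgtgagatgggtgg
Ptgs2 untranslated region: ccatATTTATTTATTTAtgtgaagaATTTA
The motifs were searched on both strands. The TATA box was searched as TATAAA and the cyclic AMP response element as TGACGTCA, found in 13.6% and 1.79% of all 32851 RefSeq promoter windows. Its shorter form was TGACGT, which lies within the longer one. The E-box was searched as CACGTG. The antioxidant response element core was TGACNNNGC and the NF-kB-like motif GGGANTTCC, found in 12.4% and 1.68% of windows. The ETS core was searched as GAGGAA. The GC box was searched as GGGCGG and the C/EBP-like motif as TTGCNNAA. The Ptgs2 window held 5 of these 9. TTGCNNAA began 69 bases before the start and is held by 10.8% of all windows. TGACGT and CACGTG, held by 7.51% and 7.15% of all windows, overlapped from base 13 after the start. GGGCGG began 170 bases and GAGGAA 247 bases before the start, with 35.7% and 28.3% of all windows holding them. The Ptgs1 window held 1 of the 9, GAGGAA, 24 bases before the start. A match of letters shows neither a bound site nor a cause. The Ptgs2 untranslated region held 14 ATTTA pentamers, the core of AU-rich elements that mark messages for rapid decay, and 97.7% of 13081 genes held fewer. This is a raw count in a long region of 2445 bases. Per kilobase Ptgs2 held 5.73 pentamers, fewer than the 9.03 of Pla2g4a, which has 4 in 443 bases. The Ptgs1 region of 921 bases held 0, and the median count over all these genes was 1.

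Because FPKM is per length, the balance of the cyclooxygenases could be read inside each library as the log2 ratio of Ptgs2 to Ptgs1, with 0.5 added to each FPKM. It was 1.16, 2.94 and 4.66 in acoustics-on replicates 1, 2 and 3, and -1.71, -1.42 and -2.21 in acoustics-off replicates 1, 2 and 3. COX-2 transcripts thus outnumbered COX-1 transcripts in each acoustics-on library, and COX-1 transcripts outnumbered COX-2 transcripts in each acoustics-off library. The means were 2.92 ± 1.75 with acoustics on and -1.78 ± 0.40 with acoustics off (SD, n = 3 each), a difference of 4.70 (exact two-sided permutation test, p = 0.1, the smallest that 3 against 3 can give). The difference ran from 3.83 to 5.58 over the alternatives. This was 1 of 3 ratios compared, each at the smallest p of the exact test. Benjamini-Hochberg adjustment over the 3 leaves that p at 0.1, while a stricter adjustment would raise it.

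**Figure D2:**
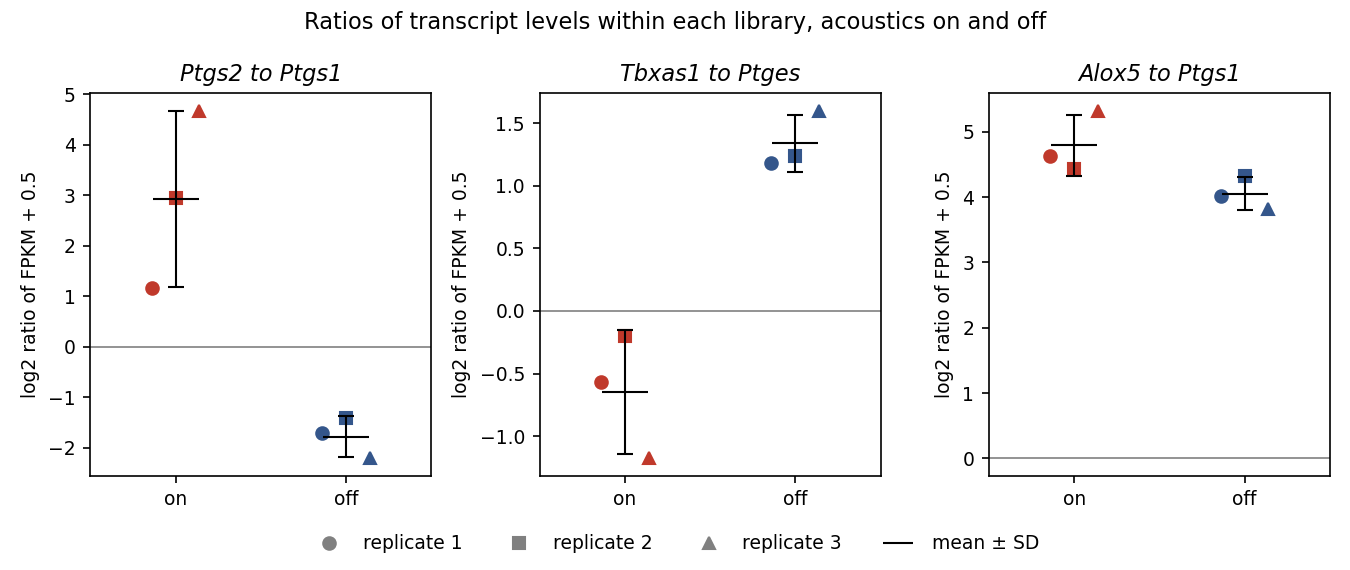
Log2 ratio of FPKM + 0.5 between gene pairs within each library, for 3 acoustics-on (red, left) and 3 acoustics-off (blue, right) libraries, with the mean ± SD in black and a grey line at equal levels; each panel has its own axis. The Ptgs2 to Ptgs1 ratio is above 0 in the acoustics-on and below 0 in the acoustics-off libraries, and the Tbxas1 to Ptges ratio is the reverse.

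Of the terminal synthases, Ptges rose and Tbxas1 did not pass. Ptges encodes microsomal prostaglandin E synthase, which is induced together with COX-2 in many cells. It lies on chromosome 2 (30889471 to 30929863, minus strand). Ptges was at 8.24, 7.98 and 12.4 FPKM in acoustics-on replicates 1, 2 and 3, and at 2.87, 2.60 and 2.78 FPKM in acoustics-off replicates 1, 2 and 3. Unlike Ptgs2, it was no lower in acoustics-on replicate 1 than in replicate 2. The means were 9.56 ± 2.51 FPKM with acoustics on and 2.75 ± 0.14 FPKM with acoustics off (SD, n = 3 each), a 3.47-fold ratio of means. The log2 difference was 1.47 (SE 0.18, adjusted p = 0.015, limma). On its FPKM + 1 scale that is 2.77-fold with a 95% interval of 2.05 to 3.73. Leaving out acoustics-on replicate 1 gave 1.55 (adjusted p = 0.0068), against 1.53 with the length and GC trend divided out (adjusted p = 0.0097). With an acoustics-off library left out it did not pass (adjusted p 0.097 to 0.10). Over all 17 alternatives the log2 difference ran from 1.28 to 1.73 and the adjusted p from 0.00018 to 0.10. Its RefSeq promoter window (chr2:30903248-30903547, minus strand, GRCm38.p6), shown because the gene rose together with Pla2g4a, held GGGCGG at 53 and at 42 bases and GAGGAA at 149 bases before the start, and 0 of the other 7 motifs. That start lies 26566 bases inside the longer GENCODE gene model.
Ptges: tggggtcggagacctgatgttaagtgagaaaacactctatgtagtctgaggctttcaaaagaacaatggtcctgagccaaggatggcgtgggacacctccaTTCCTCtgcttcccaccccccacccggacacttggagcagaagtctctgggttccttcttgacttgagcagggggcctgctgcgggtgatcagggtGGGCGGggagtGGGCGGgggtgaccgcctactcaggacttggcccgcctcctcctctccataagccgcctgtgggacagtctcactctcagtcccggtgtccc

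Tbxas1 encodes thromboxane A synthase, which competes with Ptges for prostaglandin H. It was at 5.41, 6.89 and 5.22 FPKM in acoustics-on replicates 1, 2 and 3, and at 7.14, 6.79 and 9.42 FPKM in acoustics-off replicates 1, 2 and 3. The groups overlapped narrowly, and the log2 difference of -0.36 (SE 0.17, 95% interval -0.76 to 0.04) did not pass (adjusted p = 0.29, limma). The gene (chromosome 6, 38875404 to 39084585, plus strand) overlaps Hipk2 on the opposite strand, and no source used here says whether reads were counted by strand. The log2 ratio of Tbxas1 to Ptges was -0.57, -0.20 and -1.18 in acoustics-on replicates 1, 2 and 3, and 1.18, 1.23 and 1.60 in acoustics-off replicates 1, 2 and 3. Thromboxane synthase transcripts were thus the more abundant of the pair in each acoustics-off library, and the less abundant in each acoustics-on library. The means were -0.65 ± 0.49 with acoustics on and 1.34 ± 0.23 with acoustics off (SD, n = 3 each), a difference of -1.98 (exact two-sided permutation test, p = 0.1, the smallest possible). It ran from -2.21 to -1.72 over the alternatives.

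The prostaglandin E receptor gene Ptger4, which encodes the EP4 receptor that raises cyclic AMP, did not pass. It was at 5.04, 6.97 and 5.51 FPKM in acoustics-on replicates 1, 2 and 3, and at 5.85, 6.97 and 7.57 FPKM in acoustics-off replicates 1, 2 and 3. The groups overlapped, and the log2 difference was -0.19 (SE 0.16, 95% interval -0.57 to 0.19, adjusted p = 0.49, limma). The interval leaves room for a change of up to 0.67-fold or 1.14-fold on the FPKM + 1 scale. Ptger4 (chromosome 15, 5206661 to 5244187, minus strand) overlaps Ttc33 on the opposite strand.

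In the leukotriene branch 0 of 3 genes passed in limma with all libraries (0 at an unadjusted p under 0.05, and 0 in the authors' deposited table). Alox5, which encodes 5-lipoxygenase, was at 42.0, 62.1 and 40.5 FPKM in acoustics-on replicates 1, 2 and 3, and at 66.2, 59.4 and 62.6 FPKM in acoustics-off replicates 1, 2 and 3. Acoustics-on replicate 2 lay within the acoustics-off range, and replicates 1 and 3 lay below it. The log2 difference was -0.40 (SE 0.18, 95% interval -0.83 to 0.03, adjusted p = 0.28, limma). Its log2 ratio to Ptgs1 was 4.63, 4.42 and 5.32 in acoustics-on replicates 1, 2 and 3, and 4.02, 4.32 and 3.82 in acoustics-off replicates 1, 2 and 3, a difference of 0.74 (exact two-sided permutation test, p = 0.1). That difference ran from 0.47 to 1.01 over the alternatives (exact permutation p of 0.1 to 0.2). Alox5 exceeded Ptgs1 in every library of both groups.

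Alox5ap, which encodes the 5-lipoxygenase activating protein that presents arachidonate to the enzyme, had the highest level of the 9 genes in both groups. It was at 563.4, 385.0 and 249.6 FPKM in acoustics-on replicates 1, 2 and 3, and at 274.2, 293.1 and 297.4 FPKM in acoustics-off replicates 1, 2 and 3. The acoustics-on libraries straddled the acoustics-off range, with replicates 1 and 2 above it and replicate 3 below. The log2 difference of 0.39 (SE 0.28, 95% interval -0.28 to 1.06) did not pass (adjusted p = 0.44, limma). Its longest transcript has 1251 bases. With the length and GC trend divided out, Alox5ap was at 405.0, 355.8 and 270.6 in acoustics-on replicates 1, 2 and 3, and at 313.3, 318.2 and 332.9 in acoustics-off replicates 1, 2 and 3, on the corrected FPKM scale. The log2 difference was then 0.08 (adjusted p = 0.77), and without acoustics-on replicate 1, uncorrected, it was 0.11 (adjusted p = 0.74). Over 17 alternatives the adjusted p ran from 0.099 to 0.82.

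Ltc4s encodes leukotriene C synthase, which makes the first cysteinyl leukotriene, and its longest transcript of 716 bases is the shortest of the 9. It was at 88.8, 80.4 and 57.2 FPKM in acoustics-on replicates 1, 2 and 3, and at 77.7, 70.8 and 73.1 FPKM in acoustics-off replicates 1, 2 and 3. As for Alox5ap, acoustics-on replicates 1 and 2 lay above the acoustics-off range and replicate 3 below it. The log2 difference was 0.01 (SE 0.18, 95% interval -0.42 to 0.43, adjusted p = 0.98, limma), and -0.28 with the length and GC trend divided out (adjusted p = 0.24), so no direction can be given. Over 17 alternatives the adjusted p ran from 0.24 to 1.00. Antisense genes overlap both Ltc4s (chromosome 11, 50236461 to 50238616, minus strand) and Alox5ap (chromosome 5, 149264767 to 149288153, plus strand).

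**Figure D3:**
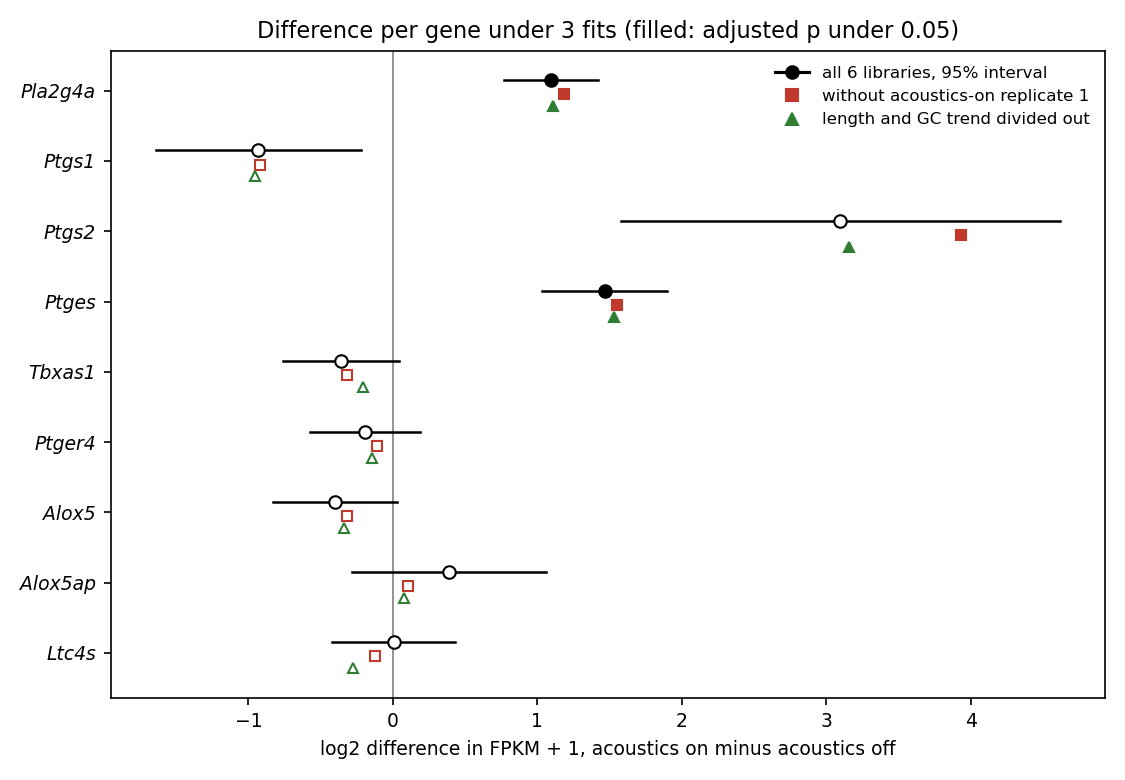
Log2 difference in FPKM + 1, acoustics on minus acoustics off, for each of the 9 genes: all 6 libraries with the 95% interval (black circles), without acoustics-on replicate 1 (red squares) and with the length and GC trend divided out (green triangles); filled symbols have an adjusted p under 0.05. Pla2g4a at 1.09 and Ptges at 1.47 are filled under each fit. Ptgs2 is open as the black circle at 3.10 and filled as the square and the triangle. The remaining 6 genes are open.

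The order of levels differed between the groups below the first place, which Alox5ap held in both. With acoustics on, the order from high to low was Alox5ap, Pla2g4a, Ltc4s, Alox5, Ptgs2, Ptges, Ptger4, Tbxas1 and Ptgs1. Neighbours that overlapped between libraries there were Pla2g4a with Ltc4s, Ltc4s with Alox5, Ptgs2 with Ptges, and Ptger4 with Tbxas1. With acoustics off, the order was Alox5ap, Ltc4s, Alox5, Pla2g4a, Tbxas1, Ptger4, Ptgs1, Ptges and Ptgs2. The overlapping neighbours there were Tbxas1 with Ptger4 and Ptgs1 with Ptges. Both orders use uncorrected FPKM. With the length and GC trend divided out, Pla2g4a was at 88.5 to 100.7 and Ltc4s at 57.9 to 76.4 with acoustics on. That pair then no longer overlapped, while the other overlapping pairs named still did. Pla2g4a was ranked 2 with acoustics on and 4 with acoustics off. It lay above Alox5 in each acoustics-on library and below it in each acoustics-off library, with no overlap in either group. Ptgs2 was ranked 5 with acoustics on and 9 with acoustics off, and Ptgs1 9 and 7. Set among all 16108 genes, the mean level of Ptgs2 exceeded 70.9% of genes with acoustics on and 29.9% with acoustics off. The coefficient of variation between libraries ran from 12.5% (Pla2g4a) to 70.3% (Ptgs2) with acoustics on, and from 4.27% (Alox5ap) to 23.8% (Ptgs2) with acoustics off. Counting error at the authors' mean counts, which pool both groups, would be 0.88% to 6.16%, and it is larger in libraries where a gene is low.

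The genes whose profile over the 6 libraries lay closest to that of Ptgs2 were Ccl5, Nos2 and Ccl7. Closeness was the root mean square difference of log2(FPKM + 1) values set relative to the acoustics-off mean, over 9764 candidate genes, and came to 0.22, 0.34 and 0.54. Ccl5 and Ccl7 encode chemokines and Nos2 the inducible nitric oxide synthase. Ccl5 was at 10.7, 51.9 and 55.2 FPKM in acoustics-on replicates 1, 2 and 3, and at 3.01, 1.73 and 2.39 FPKM in acoustics-off replicates 1, 2 and 3, with the same low acoustics-on replicate 1 as Ptgs2. For Ptgs1 the closest were Zdhhc14, Ada and Zeb2os, at 0.18, 0.20 and 0.20. Ada, which encodes adenosine deaminase, was at 12.9, 20.2 and 8.54 FPKM in acoustics-on replicates 1, 2 and 3, and at 22.3, 24.1 and 24.1 FPKM in acoustics-off replicates 1, 2 and 3. All these genes were picked for likeness on the same libraries, so their differences are descriptive. The neutrophil list ran in the same direction as Ptgs2 through its only listed marker. S100a8 was at 1.52, 6.97 and 6.62 FPKM in acoustics-on replicates 1, 2 and 3, and at 0.18, 0.18 and 0.09 FPKM in acoustics-off replicates 1, 2 and 3 (adjusted p = 0.053, limma, and 0.00018 without acoustics-on replicate 1). The other 7 neutrophil markers, among them Mpo, Elane and Ly6g, are not listed in the table. The part of other cells in these results was not tested.

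Around the 9 genes, 123 further symbols of the eicosanoid pathways were examined in 9 lists. Of these, 98 were in the table and 76 were tested. With acoustics on, Mgst2, Ptgir, Akr1b8 and Cbr3 rose and Hpgd and Cysltr1 fell (limma). That is 7.89% of those tested, against 2.07% of all tested genes called in either direction. These lists were also chosen with earlier results known, so an excess over all tested genes is not a result about the pathways. The median log2 difference was 0.09 over the 76 genes and -0.03 over all tested genes. Without acoustics-on replicate 1, 6 rose and 6 fell, 15.8% of those tested against 7.83% of all tested genes. At an unadjusted p under 0.05, 15 of the 76 were higher and 11 lower, to be read against the 10.5% and 9.16% of all tested genes, as are the counts at that threshold in single lists. In single lists, counts from the authors' deposited table are to be read against its 5.08% called higher and 2.49% lower. Limma counts in single lists are to be read against the 1.5% of all tested genes that rose and the 0.574% that fell.

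Hpgd encodes the dehydrogenase that inactivates prostaglandin E. It was at 1.11, 3.74 and 1.67 FPKM in acoustics-on replicates 1, 2 and 3, and at 9.28, 8.96 and 9.78 FPKM in acoustics-off replicates 1, 2 and 3. Every acoustics-on library was under the lowest acoustics-off library. Hpgd had a log2 difference of -1.79 (SE 0.29, 95% interval -2.47 to -1.11, adjusted p = 0.031, limma), and -1.54 without acoustics-on replicate 1 (adjusted p = 0.017). It passed in 12 of 17 alternatives with the same direction in all of them (adjusted p up to 0.16). Of 6 breakdown and transport genes tested, Hpgd was the only one called, where 2.07% of all tested genes were called in either direction. Ptgr1, a prostaglandin reductase gene, was at 30.7, 19.9 and 17.8 FPKM in acoustics-on and 10.4, 11.7 and 11.7 FPKM in acoustics-off replicates 1, 2 and 3. It did not pass (log2 difference 0.92, adjusted p = 0.086), but did without acoustics-on replicate 1 (0.70, adjusted p = 0.014).

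In the list of further prostanoid receptors, which leaves out Ptger4, 3 genes were tested: Ptgir, Ptger1 and Pparg. Pparg encodes a nuclear receptor and did not pass (adjusted p = 0.31, limma). Ptgir, the prostacyclin receptor gene, rose, where 1.5% of all tested genes did. It was at 33.0, 26.0 and 46.8 FPKM in acoustics-on replicates 1, 2 and 3, and at 13.4, 14.4 and 12.0 FPKM in acoustics-off replicates 1, 2 and 3, with no overlap. Its log2 difference came to 1.31 (SE 0.22, adjusted p = 0.034, limma), and Ptgir passed in 11 of 17 alternatives (adjusted p up to 0.18). Ptger1, the EP1 receptor gene, was at 2.23, 1.18 and 0.73 FPKM in acoustics-on replicates 1, 2 and 3, and at 2.22, 2.84 and 2.11 FPKM in acoustics-off replicates 1, 2 and 3, and did not pass (adjusted p = 0.26), though it did without acoustics-on replicate 1 (-0.80, adjusted p = 0.032). Ptger2, the EP2 receptor gene, stayed at or under 0.14 FPKM in every library and was not tested.

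Among 8 tested genes listed as other prostanoid synthases, the reductase genes Akr1b8 and Cbr3 rose and 0 fell (limma). Of all tested genes, 1.5% rose and 0.574% fell. At an unadjusted p under 0.05, 5 were higher and 1 lower, and the authors' deposited table called 3 and 1. Whether the enzymes of Akr1b8 and Cbr3 act on prostanoids in these cells was not tested. Akr1b8 averaged 284.7 ± 57.2 FPKM with acoustics on and 118.2 ± 3.06 FPKM with acoustics off (SD, n = 3 each, log2 difference 1.24, adjusted p = 0.019), and Cbr3 averaged 58.0 ± 14.8 FPKM with acoustics on and 23.9 ± 0.79 FPKM with acoustics off (log2 difference 1.22, adjusted p = 0.029). Akr1b8 passed in 13 of 17 alternatives (adjusted p up to 0.13) and Cbr3 in 12 (adjusted p up to 0.16). With the length and GC trend divided out their log2 differences were 0.94 and 0.92, both still passing (adjusted p = 0.014 and 0.0070). Akr1b8 belongs to a family of similar genes, and whether reads were shared among them was not tested. Hpgds, the hematopoietic prostaglandin D synthase gene, was at 16.5, 23.0 and 16.4 FPKM in acoustics-on replicates 1, 2 and 3, and at 27.3, 28.3 and 29.2 FPKM in acoustics-off replicates 1, 2 and 3. Its groups did not overlap, but the log2 difference of -0.59 did not pass (adjusted p = 0.12). Ptges2 and Ptges3, the other prostaglandin E synthase genes, had log2 differences of 0.18 and 0.33 (adjusted p = 0.44 and 0.23).

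On the leukotriene side, Mgst2 rose and Cysltr1 fell. Mgst2, a microsomal glutathione transferase that can also make leukotriene C, was at 220.3, 110.4 and 102.0 FPKM in acoustics-on replicates 1, 2 and 3, and at 24.5, 29.7 and 27.3 FPKM in acoustics-off replicates 1, 2 and 3. Every acoustics-on library was more than 3 times the highest acoustics-off library. Mgst2 had a log2 difference of 2.28 (SE 0.29, adjusted p = 0.016, limma), and 1.93 without acoustics-on replicate 1 (adjusted p = 0.00052). It passed in 14 of 17 alternatives (adjusted p up to 0.10). Cysltr1, the only tested leukotriene receptor gene, which encodes a receptor for cysteinyl leukotrienes, was at 3.35, 8.67 and 5.63 FPKM in acoustics-on replicates 1, 2 and 3, and at 19.6, 16.7 and 18.8 FPKM in acoustics-off replicates 1, 2 and 3. The groups did not overlap. Cysltr1 differed by -1.56 on the log2 scale (SE 0.28, adjusted p = 0.044, limma) and passed in 11 of 17 alternatives (adjusted p up to 0.20). Lta4h, whose enzyme makes leukotriene B, averaged 24.3 ± 1.69 FPKM with acoustics on and 29.8 ± 0.69 FPKM with acoustics off (SD, n = 3 each) and did not pass (adjusted p = 0.23).

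In the lists of arachidonate release and of reacylation, with 14 genes tested in each, 0 rose and 0 fell (limma). At an unadjusted p under 0.05, 2 were higher and 1 was lower in the release list, and 2 were higher and 2 lower in the reacylation list. The authors' deposited table called a single release gene higher and 0 lower, and in the reacylation list 1 higher and 1 lower. Pla2g7, the platelet-activating factor acetylhydrolase gene, averaged 1.88 ± 0.43 FPKM with acoustics on and 0.74 ± 0.25 FPKM with acoustics off (SD, n = 3 each, adjusted p = 0.090, and 0.026 without acoustics-on replicate 1). The lysophospholipid acyltransferase genes had differences of opposite sign, neither passing: Lpcat2 had a log2 difference of 0.50 (adjusted p = 0.13) and Lpcat1 of -0.60 (adjusted p = 0.11). Of 5 genes of other lipoxygenases, the epoxide pathway and resolution, 0 passed (limma, 1 higher and 1 lower at an unadjusted p under 0.05, 0 and 0 in the authors' deposited table).

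Of 16 regulators of Ptgs2 transcription and mRNA decay, all tested, 0 rose and 0 fell (limma). At an unadjusted p under 0.05, 0 were higher and 3 lower, where 9.16% of all tested genes were lower. The authors' deposited table also called 0 higher and 3 lower, where 2.49% of its genes were called lower. Without acoustics-on replicate 1, 0 rose and 3 fell, where 554 of all 11664 tested genes rose and 359 fell (7.83% in either direction). With the length and GC trend divided out, 0 rose and 1 fell, where 297 of all tested genes rose and 342 fell (5.48% in either direction). Zfp36 encodes tristetraprolin, which binds ATTTA-rich sites in messages and speeds their decay. Its binding to Ptgs2 and the decay of Ptgs2 were not tested. Zfp36 was at 51.7, 50.2 and 64.9 FPKM in acoustics-on replicates 1, 2 and 3, and at 84.6, 95.4 and 117.0 FPKM in acoustics-off replicates 1, 2 and 3. No acoustics-on library reached the acoustics-off range, but the log2 difference of -0.82 (SE 0.17) did not pass (adjusted p = 0.070), whereas it did without acoustics-on replicate 1 (-0.77, adjusted p = 0.043). Cebpb, a C/EBP transcription factor gene, had a log2 difference of 0.26 (adjusted p = 0.52), and the NF-kB subunit genes Nfkb1 and Rela had -0.18 and -0.10 (adjusted p = 0.38 and 0.63). Mapk14, the p38 kinase gene, had -0.72 (adjusted p = 0.12), and -0.52 without acoustics-on replicate 1 (adjusted p = 0.022).

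**Figure D4:**
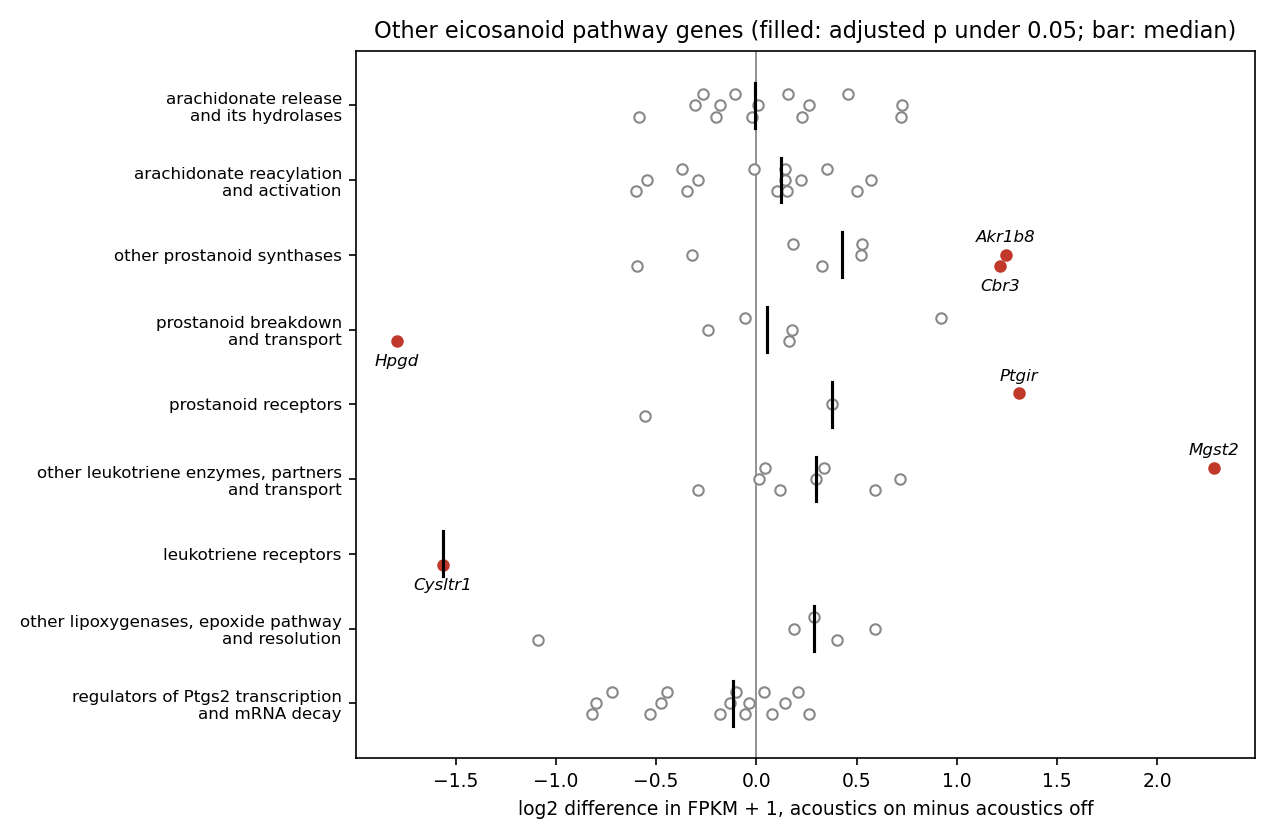
Log2 difference in FPKM + 1, acoustics on minus acoustics off, for each of the 76 tested genes of the 9 further eicosanoid lists (1 circle per gene, spread vertically for sight only), with list medians as black bars; filled red circles are named and have an adjusted p under 0.05. Mgst2 at 2.28, Ptgir at 1.31, Akr1b8 at 1.24 and Cbr3 at 1.22 lie to the right and Hpgd at -1.79 and Cysltr1 at -1.56 to the left, while the release, reacylation and regulator lists hold open circles only.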

How the data were processed

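RNA-seq libraries of RAW264.7 cells (3 acoustics-on, 3 acoustics-off) were analysed from the authors' deposited FPKM values per gene. Their deposited comparison table holds per gene a mean of normalised counts (a signal, not counts per library), log2 fold changes with standard errors, a Wald score, p-values and adjusted p-values, missing for 1586 genes, per the file headers. Reads were handled with STAR 2.7.11, Trim Galore 0.6.8, DESeq2 1.38.2 and Salmon 1.4.0 on GRCm38, per the submitters' processing notes; the order and settings of these steps are not known here. Per the labels' protocols, libraries were made after ribosomal RNA depletion, while the molecule field says polyA RNA. The files used here hold no counts per library, so the planned count test could not be run and its stated substitute was used: limma 3.58.1 in R 4.3.3 on log2(FPKM + 1), trended and robust prior, acoustics on minus off, no covariate, filter and adjustment as in the report. At the step that gave relative depth, at most 66.8% of low values were within 0.05 of a whole number, so reads were not recovered. Alternatives were other pseudocounts, filters and scalings, library weights (gene-by-gene estimator, because the default one stopped before convergence), a replicate block, each library left out with the tested genes kept, and division of the FPKM by each library's loess curve (span 0.5) over GC content and length, taken from each gene's longest transcript. Length came from GENCODE M21 (GRCm38) for 15911 genes matched by symbol, as did coordinates. Promoters came from RefSeq (GRCm38.p6) and matched 8 of 9 genes; Alox5ap had no entry. The test and the trend correction were tested on simulated data. The 9 genes, the lists and the tests were chosen with earlier results of these data known. Named genes came from the 9, those called in each list, the 4 with the smallest p in each list, the 3 nearest profiles of Ptgs1 and Ptgs2 (established symbols, mean log2(FPKM + 1) of at least 1), and, chosen after their values were seen, Ptger2, Ptges2, Ptges3, Cebpb, Nfkb1 and Rela. Other fixed lists were fibroblast markers (summed 0.76 to 3.08 FPKM with acoustics on and 1.30 to 2.02 with acoustics off) and platelet markers (40.9 to 114.2 and 64.2 to 71.8).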

Additional observations from a re-analysis of the deposited data

How the results depend on the processing

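Under 17 alternatives Pla2g4a and Ptges kept their direction and passed in 14; both lost the call where an acoustics-off library was left out (over the 6 libraries left out in turn, log2 differences of 1.00 to 1.18 and of 1.28 to 1.57). Ptgs2 did not pass in the main fit. With all libraries kept, it passed with a pseudocount of 0.1 (4.14, adjusted p = 0.044) and with quantile normalization (3.15, adjusted p = 0.049). It also passed with library weights (3.78) and with the length and GC trend divided out (3.16), again with all libraries kept. With that trend divided out and acoustics-on replicate 1 left out it passed at 3.91. Over single libraries left out its log2 difference ran from 2.63 to 3.93. Same-numbered libraries did not deviate together (correlations of -0.07, -0.02 and -0.004, against -0.12 to 0.12 for different numbers). These values gave no sign that the numbers pair the samples. With deviations taken within groups of 3 libraries, they cannot exclude a pairing. With the replicate block, Ptgs2 passed at 3.10 (adjusted p = 0.047), making 3 of the 9 genes higher, and 133 genes rose and 46 fell in all. Signs that reversed were in genes that did not pass. Ltc4s turned to -0.089 with quantile normalization, -0.28 with the length and GC trend divided out and -0.16 with acoustics-on replicate 1 also left out, and ran from -0.12 to 0.19 over single libraries left out. Alox5ap turned to -0.047 with the trend divided out and acoustics-on replicate 1 left out. The cause was not tested. The number of the 9 genes higher ran from 0 to 3 over single libraries left out. In the 9 further lists the counts higher and lower were 2 and 0 with no filter, 16 and 10 with library weights, 8 and 12 with the trend divided out and acoustics-on replicate 1 left out, and 0 to 6 each over single libraries left out; with a pseudocount of 0.1, 1 was lower. Over all tested genes, 175 higher and 67 lower became 116 and 34 with no filter (more genes tested), 1098 and 784 with library weights, 297 and 342 with the trend divided out, 664 and 772 with acoustics-on replicate 1 also left out, 111 lower with quantile normalization, and 14 to 554 higher and 5 to 359 lower over single libraries left out. The 3 ratios kept their direction under each alternative run. The count test was not run.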
